A study of Mus musculus with 16 samples.

Results

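The genes of the MHC class II system were examined in cultured cells of the mouse coronal suture. The 7 genes were listed by name, H2-Aa, H2-Ab1, H2-Eb1, H2-DMa, H2-DMb1, Cd74 and Ciita, and each was to be read from its brightest probe set that carries a single gene symbol. Of the 7 genes, 6 had such a probe set, 1 each, out of 22180 genes in the whole series. The probe set for Cd74 carries 2 symbols, so no value is given for that gene. Of the 6 measured genes, 4 (H2-Ab1, H2-Eb1, H2-DMa and Ciita) were bright enough to be among the 13453 genes tested, whose mean log2 value reached at least 3.905. H2-Aa and H2-DMb1 lay below that level, and their differences are given from the same fit run on all 22180 genes.

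MHC class II molecules display peptides from engulfed proteins to CD4 T cells. H2-Aa and H2-Ab1 encode the alpha and beta chains of the I-A molecule, and H2-Eb1 encodes the beta chain of I-E. C57BL6 mice lack a functional H2-Ea, the alpha chain of I-E, and carry no I-E at the cell surface, so H2-Eb1 is read here as RNA only. Cd74 encodes the invariant chain that fills the groove of new class II molecules, and H2-DMa and H2-DMb1 encode the H2-DM dimer that exchanges its remnant for peptide. Ciita encodes the co-activator that switches these genes on, constitutively in dendritic cells and B cells and after interferon gamma in macrophages and many other cells. Resting macrophages can carry little class II.

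The cells were C57BL6, either wild type or Twist1+/-, the latter heterozygous for a transcription factor of the skull mesenchyme whose loss of a copy is linked to early fusion of this suture. They came from 2 litters and were kept in DMEM with serum, as control, or with added thyroxine (log10 of its molar concentration, -6), for 3 or 7 days. This gave 8 groups of genotype, medium and day with 2 arrays each, 1 of female and 1 of male cells, and 16 arrays in all. Arrays of the same genotype and sex are called a culture here, 4 cultures in total. The sample titles give genotype, medium, day and sex, and do not state that such arrays share a culture. The labels speak of 8 independent samples, so the matching of arrays across days and media within a culture is an assumption. The p-values measure the spread between arrays and not between animals, and part of that spread may be technical. The sources used here do not give whether a culture pooled several animals. The number of arrays limits the precision.

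The cells are labelled as coronal suture cells, and 8 of 8 markers of suture mesenchyme were bright enough to be tested, with a list mean between 9.22 and 10.56 per array. Markers of macrophages were as clearly present, 15 of 15, with Adgre1, which encodes the macrophage surface receptor F4/80, between 7.27 and 10.22. The wild-type male culture stood apart at 3 days: its macrophage list mean was 9.17 and 9.20 on its 2 arrays, against 7.49 to 8.24 on the other 6 arrays of that day. Its mesenchyme list mean was 9.22 to 9.29 there, against 10.29 to 10.56. Over both days 8 of 8 mesenchyme genes were lower in this culture by limma, and their median change between the days was 0.02. The day differences of H2-DMa and H2-Ab1 are also given without this culture, and other results include it. Of the professional class II cells besides macrophages, B cells had 0 of 4 markers above the tested level, with Ms4a1 at 2.24, Cd79a at 3.70, Pax5 at 3.80 and Cd79b at 3.85. Dendritic cells had 4 of 7, with Itgax at 4.15, Zbtb46 at 4.28, Ccr7 at 4.37 and Cd209a at 10.14, and with Flt3 (2.77), Xcr1 (2.97) and Batf3 (3.41) below the tested level. Cd209a, which encodes the lectin DC-SIGN, was thus bright, from 9.45 to 10.79 over the arrays, but its 2 probe sets disagreed, the other having a mean of 2.64. Its part in the class II values was not tested. T cells had 1 of 4, Cd3e at 4.22, osteoclasts 4 of 7 and endothelium 3 of 4. In these bulk samples, fewer cells of a type and less RNA per cell cannot be told apart.

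Class II genes are recognised by a promoter module of X, X2 and Y boxes, on which the RFX, CREB and NF-Y factors assemble and recruit CIITA. The promoters below are shown because CIITA, 1 of the measured genes, acts through this module, and the letter pattern searched for matched only some of them. RefSeq promoter windows of build GRCm38.p6, 250 bases before to 50 bases after each start, held entries for 4 of the 6 measured genes, H2-Aa, H2-Eb1, H2-DMa and H2-DMb1. The module was searched on both strands as GNAAC, then 0 to 6 bases, TGANG, then 10 to 25 bases, and ATTGG, with spacings set after these promoters had been seen. It was found in H2-Aa, H2-Eb1 and H2-DMb1, and in neither of the 2 windows of H2-DMa. The module occurred in 0.107% of all 32851 windows, while its parts alone were common, with ATTGG in 37.4%, GNAAC in 84.8% and TGANG in 89.4%. In the 3 stretches, 5′ to 3′ on the gene's strand, capitals mark the parts of the module in the order given. GNAAC and TGANG adjoin in H2-Eb1 and H2-DMb1 and are 2 bases apart in H2-Aa. Whether TGANG marks the X2 box in each of these genes was not tested.
H2-Aa: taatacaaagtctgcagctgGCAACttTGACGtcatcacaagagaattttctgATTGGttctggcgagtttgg
H2-Eb1: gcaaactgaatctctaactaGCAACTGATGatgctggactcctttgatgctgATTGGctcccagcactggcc
H2-DMb1: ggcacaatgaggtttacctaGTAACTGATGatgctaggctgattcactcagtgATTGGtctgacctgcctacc
The H2-Aa stretch lies at chr17:34287852-34287924 on the minus strand, from position -101 to position -29 relative to the start. The H2-Eb1 stretch lies at chr17:34305756-34305827 on the plus strand, from -111 to -40. The H2-DMb1 stretch lies at chr17:34153077-34153149 on the plus strand, from -114 to -42. TGANG and ATTGG were 21, 22 and 23 bases apart in H2-Aa, H2-Eb1 and H2-DMb1. Among other class II chains, the module was also found in H2-Ob and H2-Eb2 and not in H2-DMb2 or H2-Oa. A match describes the letters of the window only. As the spacings were set on these promoters, the matches in them are no test of the module. A miss, as in H2-DMa, does not show that the module is absent.

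The class II genes were dim on these arrays, none with a mean above that of H2-DMa, 5.81, on a scale that ran from 0.57 to 14.05 over all probe sets. The I-A alpha chain H2-Aa had a mean log2 value of 2.67 ± 0.15 (SD, n = 16), from 2.41 to 3.03, below the tested level on every array. The I-A beta chain H2-Ab1 had 4.62 ± 0.26, from 4.08 to 5.06, and the I-E beta chain H2-Eb1 had 5.44 ± 0.24, from 4.93 to 5.90. In this strain I-A is the class II molecule that holds peptide at the cell surface. For the peptide exchanger, H2-DMa had 5.81 ± 0.42, from 4.99 to 6.42, and H2-DMb1 had 3.79 ± 0.19, from 3.54 to 4.18. Ciita, the co-activator, had 4.41 ± 0.20, from 3.83 to 4.71. Levels of different probe sets depend on their probes, so the genes are not ranked by level. The probe set of H2-DMb1 can share signal with its near-identical neighbour H2-DMb2, which makes the H2-DMb1 value uncertain.

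H2-DMa was the measured class II gene with the widest spread over the arrays. Its SD over the 16 arrays was 0.421, against a median of 0.213 among genes within 0.25 log2 units of its brightness, and 89.9% of those genes varied less. H2-Ab1 (0.263 against 0.229) and H2-Eb1 (0.240 against 0.224) varied about as much as genes of their brightness. Ciita (0.202 against 0.226), H2-DMb1 (0.187 against 0.232) and H2-Aa (0.146 against 0.234) varied less than the median. For Adgre1 the SD was 1.02, above that of 99.3% of genes of its brightness.

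**Figure D1:**
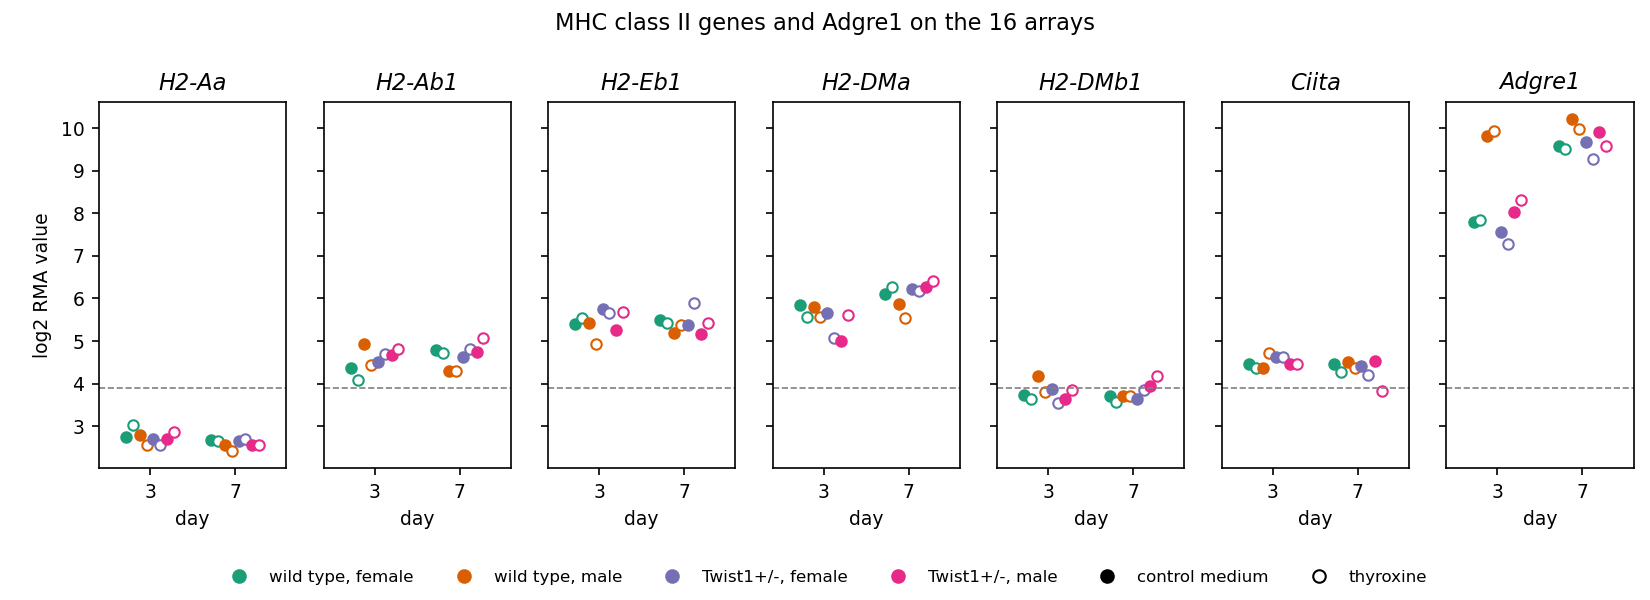
Log2 RMA value (vertical axis) of the 6 measured class II genes and Adgre1 at 3 and 7 days (horizontal axis), 1 point per array, coloured by culture, filled for control medium and open for thyroxine; the dashed line is the tested level of 3.905. H2-Aa lies below the line on all 16 arrays, and H2-DMa is higher on all 7 day arrays (6.10 to 6.42) than on any 3 day array (4.99 to 5.84) of the 3 cultures other than wild-type male, while Adgre1 is already between 9.82 and 9.94 at 3 days in that culture.

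The first comparison was between 3 and 7 days in culture. H2-DMa rose with time, and the other measured class II genes did not pass the test. At 3 days the H2-DMa values were 5.66 and 5.07 (control and thyroxine) in Twist1+/- female cells, 4.99 and 5.62 in Twist1+/- male cells, 5.84 and 5.56 in wild-type female cells, and 5.81 and 5.57 in wild-type male cells. At 7 days the same cultures had 6.23 and 6.17, 6.26 and 6.42, 6.10 and 6.27, and 5.88 and 5.53. The days overlapped only through the wild-type male arrays, and 7 of the 8 matched arrays were higher at 7 days. The mean was 5.52 ± 0.32 (SD, n = 8) at 3 days and 6.11 ± 0.28 at 7 days, a log2 difference of 0.59 ± 0.13 (SE; adjusted p = 0.00676 by limma with Benjamini-Hochberg adjustment over all tested genes). In this comparison 18.5% of all genes passed the test (9.84% higher and 8.69% lower), and 1 of the 4 tested class II genes did. H2-DMa kept its call when any single array was left out, with differences from 0.49 to 0.69.

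H2-Ab1 differed by 0.11 (limma, adjusted p = 0.590) from 3 to 7 days, with a 95% interval from -0.15 to 0.36. Its arrays were split by culture: wild-type female cells went from 4.37 and 4.08 to 4.80 and 4.72, whereas wild-type male cells went from 4.93 and 4.44 to 4.30 and 4.30. Without the wild-type male culture, the difference was 0.34 for H2-Ab1 and 0.71 for H2-DMa. That fit keeps only the female array in each wild-type group, so only its differences for these genes are given. Without only the wild-type male arrays at 3 days, an alternative chosen after the data were seen, the differences were 0.28 for H2-Ab1 and 0.66 for H2-DMa. Both genes thus had larger differences without these arrays, and with all arrays H2-DMa passed and H2-Ab1 did not.

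H2-Eb1 had a median of 5.48 at 3 days, from 4.93 to 5.75, and of 5.40 at 7 days, from 5.17 to 5.90. Its log2 difference was -0.04 (limma, adjusted p = 0.830; 95% interval -0.23 to 0.16), so the days overlapped almost entirely. Ciita had a median of 4.46 at 3 days, from 4.37 to 4.71, and of 4.40 at 7 days, from 3.83 to 4.52. Its difference of -0.18 missed the threshold (limma, adjusted p = 0.150; 95% interval -0.36 to -0.0039), with 6 of 8 matched arrays lower at 7 days. Among the dim genes, in the fit on all genes, H2-Aa differed by -0.14 (limma, adjusted p = 0.440), lower in 7 of 8 matched arrays, and H2-DMb1 by 0.0062 (adjusted p = 0.984).

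Within each culture the change of H2-DMa ran from near 0 to about a log2 unit. It was 1.04 in Twist1+/- male cells (limma, adjusted p = 0.00557) and 0.84 in Twist1+/- female cells (adjusted p = 0.0169), both past the threshold. It was 0.49 in wild-type female cells (adjusted p = 0.183) and 0.015 in wild-type male cells (adjusted p = 0.993). The share of all genes that passed was 11.3%, 14.1%, 12.6% and 0.431% in these cultures in the same order. These tests set 2 arrays against 2, and the Twist1+/- calls were lost without single arrays. In male cells H2-DMa had 0.64 without the 3 day control array (limma, adjusted p = 0.151) and 0.90 without the 7 day thyroxine array (adjusted p = 0.0652). In female cells it had 0.54 without the 3 day thyroxine array (limma, adjusted p = 0.269), 0.84 without the 7 day control array (adjusted p = 0.0855) and 0.83 without the 7 day thyroxine array (adjusted p = 0.0913). The difference between the change in the wild-type male culture and the mean change of the other 3 was -0.77 for H2-DMa (limma, adjusted p = 0.0934) and -0.65 for H2-Ab1 (adjusted p = 0.111). Of the 4 class II genes 0 passed this test of the difference, by limma, with 2 at an unadjusted p under 0.05, while 6.1% of all genes passed. It was past the threshold for H2-DMa without the Twist1+/- male thyroxine array at 3 days (-0.90, limma, adjusted p = 0.0154) and for H2-Ab1 without the wild-type male thyroxine array at 3 days (-0.93, adjusted p = 0.0454).

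Macrophage markers moved over the same interval and by more. All 15 of 15 macrophage genes rose, with a median log2 difference of 1.25 against -0.02 over all genes tested. Adgre1 rose by 1.39 ± 0.19 (limma, adjusted p = 0.000569) and was higher at 7 days in 8 of 8 matched arrays, by 0.04 to 2.11. Others were Cd68, a lysosomal membrane protein (1.54), C1qa, a chain of complement C1q (1.43), Fcgr1, a high-affinity IgG receptor (1.43), and Mrc1, the mannose receptor (1.41). Of the 4 tested dendritic cell genes 1 rose, Itgax, which encodes the integrin CD11c that macrophages share (0.77, limma, adjusted p = 0.000978). The osteoclast (0 of 4), endothelial (0 of 3) and mesenchyme (0 of 8) lists had no gene past the threshold by limma, with 1 gene, Mmp9 of the osteoclast list (-0.39), at an unadjusted p under 0.05. The part of these shifts in the H2-DMa change was not tested.

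Genes that process antigen for class II moved with the days as well. Of 13 measured genes of this list 8 were tested, and 5 of 8 rose and 0 fell, with a median difference of 0.46. Ctss, cathepsin S, which trims the invariant chain, rose by 1.43 (limma, adjusted p = 0.000386). Lgmn, the asparagine endopeptidase legumain, rose by 0.75, and the costimulatory ligand Cd86 by 0.72. Marchf1, a ubiquitin ligase that takes class II from the cell surface, rose by 0.60 (limma, adjusted p = 0.00198). The remaining riser, Ifi30, a lysosomal thiol reductase named here after its value was seen, rose by 0.33. The atypical chain H2-Oa, whose dimer restrains H2-DM, differed by 0.15 (limma, adjusted p = 0.445). The other class II chains H2-Eb2 (2.86), H2-Ea (2.98), H2-DMb2 (3.08) and H2-Ob (3.69) had mean log2 values below the tested level.

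Among 15 tested genes that control class II transcription, 4 rose and 1 fell, and the median difference was 0.05. The risers were Spi1, the myeloid factor PU.1 (1.14, limma, adjusted p = 0.00108), Irf8, an interferon regulatory factor of myeloid cells (1.05, adjusted p = 0.000859), and the interferon gamma receptor chains Ifngr1 (0.38) and Ifngr2 (0.27). Jak1, a kinase of that receptor, fell by 0.21 (limma, adjusted p = 0.0462). The subunits of the RFX complex that binds the X box did not pass the test, with differences of -0.005 for Rfx5, -0.14 for Rfxap and 0.13 for Rfxank. In the class I pathway, which presents peptides from the cell's own proteins, 6 of 12 genes rose and 0 fell, with a median of 0.33. H2-K1, a class I heavy chain, rose by 0.92 (limma, adjusted p = 0.00117), the immunoproteasome subunits Psmb8 and Psmb9 by 0.69 and 0.46, and the peptide-loading protein Tapbp by 0.46. Tapbp has 2 probe sets of different brightness, 8.94 and 4.49, and the brighter was read, as for Irf8, whose 2 probe sets had 6.13 and 3.74.

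**Figure D2:**
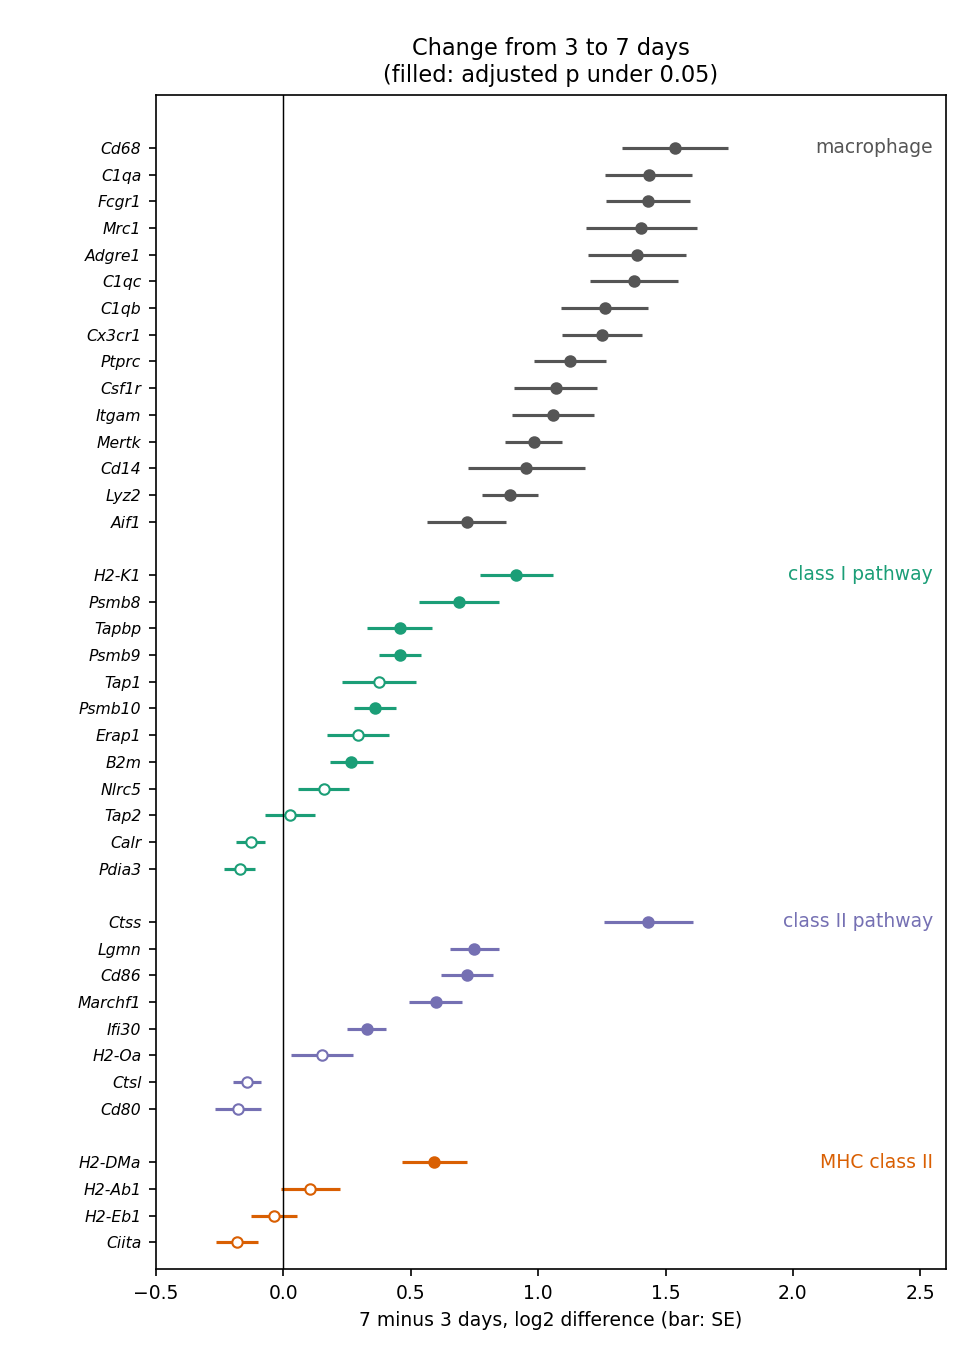
Log2 difference between 7 and 3 days (horizontal axis; the bar is 1 SE) for each tested gene (vertical axis) of the macrophage, class I, class II pathway and MHC class II lists, filled where the adjusted p is under 0.05. All 15 macrophage genes and 5 of 8 class II pathway genes are filled on the right, while of the MHC class II genes only H2-DMa, at 0.59, is filled.

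Relative to Adgre1, the class II genes were lower at 7 than at 3 days. For this measure the log2 value of Adgre1 on an array was subtracted from that of each gene on it, and only changes in it are read, since the level difference of 2 probe sets has no meaning of its own. The mean moved from -3.76 to -5.04 for H2-Ab1, from -2.87 to -4.30 for H2-Eb1, from -3.82 to -5.39 for Ciita, and from -2.81 to -3.61 for H2-DMa. For the dim genes it moved from -5.58 to -7.12 for H2-Aa and from -4.54 to -5.92 for H2-DMb1. H2-DMa thus had the smallest shift of the 6, -0.80, and Ciita the largest among the 4 tested genes, -1.57. These shifts mostly restate the change of Adgre1: 98.1% of all genes passed the same test, with a median of -1.41, and the 4 class II genes were among them, so nothing is read from that count. Subtracting 1 gene from all others makes their errors alike, and the p-values of this fit, which are too small for that reason, are not printed. Over the 6 genes the mean change from 3 to 7 days was -1.33 relative to Adgre1, -1.11 relative to the mean of Csf1r, Cd68 and Lyz2, and -1.14 relative to all macrophage markers. The cultures were unlike in this. Relative to Adgre1, the 4 tested genes moved by -0.115 (H2-Eb1) to -0.605 (H2-Ab1) in wild-type male cells. In the other cultures they moved by -0.52 (H2-DMa, Twist1+/- male) to -2.365 (Ciita, Twist1+/- female).

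**Figure D3:**
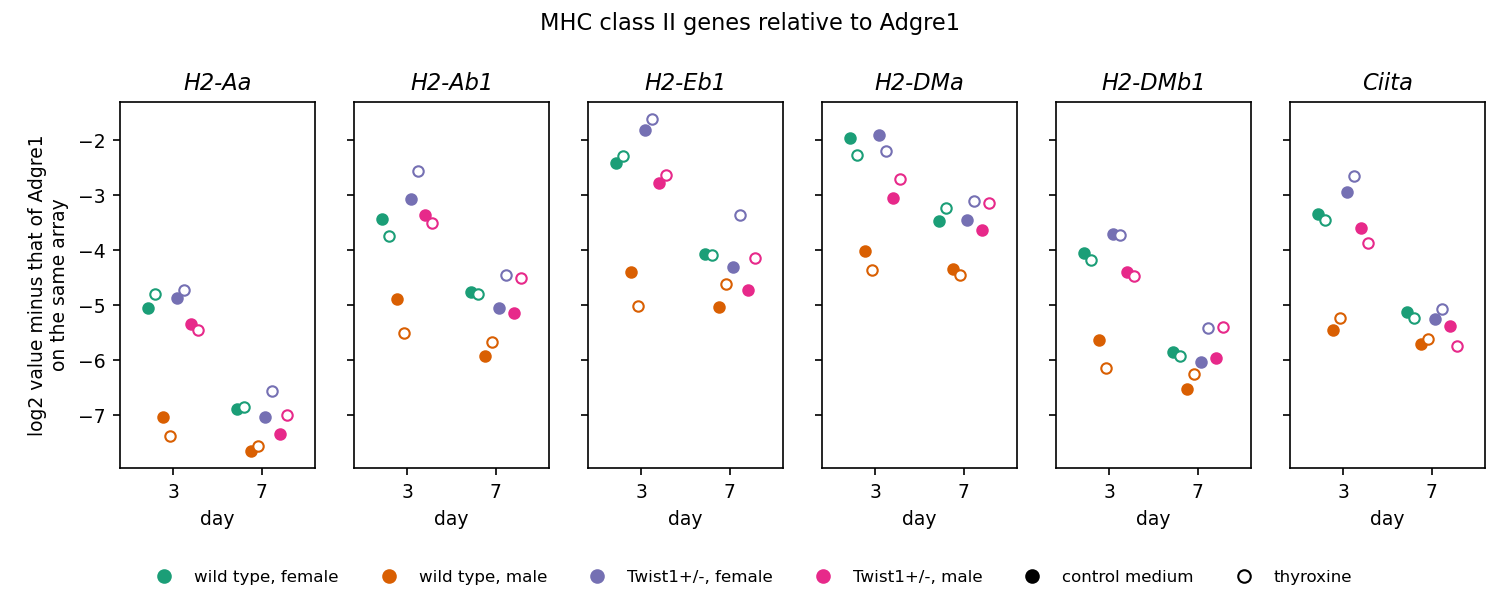
Log2 value of each class II gene minus that of Adgre1 on the same array (vertical axis) at 3 and 7 days (horizontal axis), 1 point per array, coloured by culture, filled for control medium and open for thyroxine. For H2-Ab1 the mean moves from -3.76 to -5.04, and the wild-type male arrays, where Adgre1 is high, lie low at 3 days.

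The next comparison set each culture against the mean of the other 3, over both days. The wild-type male culture differed in 28.9% of all genes, but in 0 of the 4 class II genes by limma, with 1 at an unadjusted p under 0.05. H2-Eb1 was nearest, at -0.28 (limma, adjusted p = 0.0876), with values of 5.42, 4.93, 5.19 and 5.37 in that culture. It passed only without the wild-type male control array at 3 days (-0.45, limma, adjusted p = 0.0110) or without the Twist1+/- female control array at 7 days (-0.32, adjusted p = 0.0476). H2-Ab1 differed by -0.17, H2-DMa by -0.15 and Ciita by 0.10, all within the spread between arrays, and Adgre1 was higher by 1.30 (limma, adjusted p = 9.5e-09). In the same culture 12 of 15 macrophage genes were higher, 8 of 8 mesenchyme genes lower and 7 of 12 class I pathway genes lower, with Tap1, a subunit of the class I peptide transporter, at -0.95 and H2-K1 at -0.43. Of the class II pathway genes Ctss was higher (0.95) and Cd80, a costimulatory ligand, lower (-0.38). Of the class II transcription genes 3 were higher, among them Spi1 (0.77) and Irf8 (0.51), and 5 lower, among them Irf1 (-0.60), an interferon-induced factor.

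In the other cultures 0 of 4 class II genes passed by limma, against 10.8% of all genes for wild-type female, 3.76% for Twist1+/- female and 6.23% for Twist1+/- male cells. Single genes had an unadjusted p under 0.05: H2-Eb1 in Twist1+/- female cells, at 0.32 (limma, adjusted p = 0.190), and H2-Ab1 in Twist1+/- male cells, at 0.28 (adjusted p = 0.155). Relative to Adgre1, the tested class II genes were lower in the wild-type male culture than in the other 3, by -1.20 for Ciita to -1.57 for H2-Eb1, where 99.6% of all genes passed that test.

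Genotype was compared between 2 cultures and 2, at both days. By limma 0 of 13453 genes passed, with 619 at an unadjusted p under 0.05 over both media, so no class II gene and no other gene passed. Without the wild-type male culture this fit keeps only the female array in each wild-type group, so no count is read from it. The H2-Ab1 values were 4.50 to 5.06 in Twist1+/- cells, with a median of 4.73, and 4.08 to 4.93 in wild-type cells, with a median of 4.41. The log2 difference was 0.25 (limma, adjusted p = 0.937; 95% interval -0.11 to 0.61), and the groups overlapped. H2-Eb1 differed by 0.18 (95% interval -0.09 to 0.46), H2-DMa by -0.02 (-0.41 to 0.37) and Ciita by -0.05 (-0.31 to 0.20). In control medium alone the 4 differences lay between -0.12 and 0.06, where by limma 0 genes passed, 639 of them with an unadjusted p below 0.05. Relative to Adgre1 the differences were larger, from 0.58 for Ciita to 0.88 for H2-Ab1, with a median of 0.65 over all genes, and 0 of 4 passed, against 0.0297% of all genes. Adgre1 itself differed by -0.63 (limma, adjusted p = 0.937).

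Between the sexes 0 of 4 class II genes passed by limma, with 0 at an unadjusted p under 0.05, against 0.0669% of all genes. The largest difference was that of H2-Eb1, -0.26 in male against female cells (limma, adjusted p = 0.524). Each sex was represented by 2 cultures.

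The study's treatment was thyroxine, read within 8 pairs, each made of the control and the thyroxine array for 1 culture on 1 day. Over all pairs 0 of the 4 class II genes passed by limma, with 0 at an unadjusted p under 0.05, and 0.0966% of all genes did. H2-Eb1 differed by 0.11 (limma, adjusted p = 0.898; 95% interval -0.09 to 0.31) and Ciita by -0.12 (adjusted p = 0.882; -0.32 to 0.08). H2-DMa differed by -0.07 (-0.32 to 0.18) and H2-Ab1 by -0.0025 (-0.18 to 0.17). In the fit on all genes H2-Aa differed by -0.0038 and H2-DMb1 by -0.03.

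For H2-Ab1 the thyroxine differences were at or below 0 in wild-type pairs and above 0 in Twist1+/- pairs, in values that missed the threshold. In the wild-type pairs the thyroxine minus control differences were -0.29 (female cells) and -0.49 (male cells) at 3 days, then -0.08 and 0 at 7 days. In the Twist1+/- pairs they were 0.20, 0.14, 0.19 and 0.31 in that order. The pairs of the 2 genotypes did not overlap, which held for 1.33% of all genes in the direction of higher differences in Twist1+/- cells. It held for a further 2.33% of all genes in the direction of lower differences. The mean was -0.22 in wild-type cells (limma, adjusted p = 0.909) and 0.21 in Twist1+/- cells (adjusted p = 0.569). The difference between genotypes was 0.43 ± 0.16 (SE; limma, unadjusted p = 0.0221, adjusted p = 0.473; 95% interval 0.07 to 0.78). It fails the correction over all genes, of which 0.0595% passed.

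The other genes were less even across pairs. For H2-Eb1 the wild-type differences were 0.15, -0.49, -0.07 and 0.18, and the Twist1+/- differences were -0.09, 0.42, 0.52 and 0.25 in the same order. Its mean was 0.28 in Twist1+/- cells (limma, adjusted p = 0.497), 3 of 4 pairs being higher with thyroxine. For H2-DMa the Twist1+/- pairs ran from -0.59 in female to 0.63 in male cells at 3 days, wider than any wild-type pair. For Ciita both Twist1+/- pairs were at 0 at 3 days, and those at 7 days were at -0.22 and -0.69. The effect of thyroxine on Ciita at 7 days minus that at 3 days was -0.37 (limma, adjusted p = 0.898), with 0 of 4 class II genes and 0.00743% of all genes past the threshold. Within wild-type cells 0 of 4 genes passed, against 0.0149% of all genes, and within Twist1+/- cells 0 of 4, against 0.201%. Relative to Adgre1 the differences over all pairs were -0.0075 for Ciita to 0.22 for H2-Eb1, and 0 of 4 passed, against 0.335% of all genes. By limma 0 of 8 class II pathway, 0 of 15 class II transcription, 0 of 12 class I pathway and 0 of 15 macrophage genes changed with thyroxine over all pairs, with 1 gene each at an unadjusted p under 0.05: Ctss (-0.14), Nfya (0.15), Tap2 (-0.16) and Mrc1 (-0.24).

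**Figure D4:**
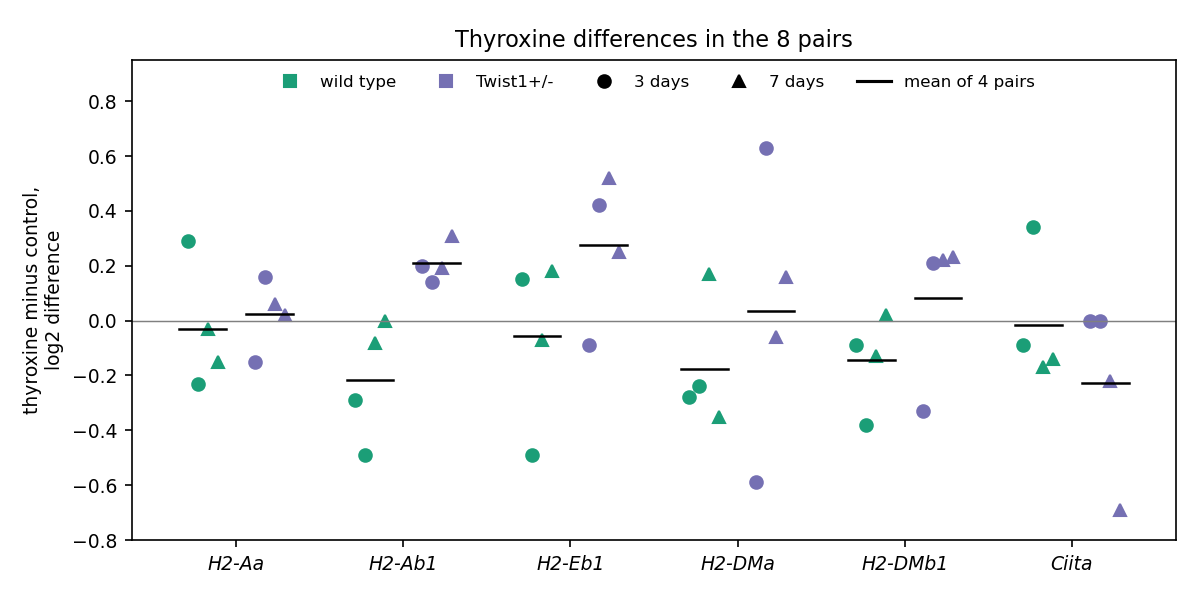
Thyroxine minus control log2 difference (vertical axis) of each class II gene (horizontal axis) in the 8 pairs, wild type and Twist1+/- side by side, with circles for 3 days, triangles for 7 days and a line at the mean of 4 pairs. The H2-Ab1 pairs lie at or below 0 in wild-type cells and above 0 in Twist1+/- cells, and the pairs of the other genes overlap.

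The measured class II genes followed each other unevenly over the arrays. Pearson's r over the 16 arrays, which share 4 cultures and 8 pairs, was 0.40 between H2-Aa and H2-Eb1, 0.23 between H2-Ab1 and H2-Eb1, and -0.11 between the 2 chains of I-A, H2-Aa and H2-Ab1. It was 0.40 between H2-DMa and H2-DMb1, and the highest was 0.54 between H2-Ab1 and H2-DMb1, with 0.47 among the 8 arrays at 3 days and 0.62 among those at 7 days. Some pairs were closer at 7 days, with 0.86 between H2-Ab1 and H2-DMa (-0.14 at 3 days), 0.65 between H2-Aa and H2-DMa (0.37), 0.58 between H2-Aa and H2-Eb1 (0.34) and 0.54 between H2-Aa and H2-Ab1 (-0.32). Over all arrays Ciita had negative values with all 5 of the others, from -0.55 with H2-DMa to -0.05 with H2-Aa. With Adgre1, H2-DMa had 0.59 over all arrays, 0.38 among the 8 arrays at 3 days and -0.59 among those at 7 days, so the sign over all arrays did not hold at 7 days. H2-Eb1 had -0.52 with Adgre1 over all arrays, -0.68 at 3 days and -0.83 at 7 days, negative in each. H2-Aa had -0.48 (-0.11 at 3 days and -0.73 at 7 days). For the others the sign over all arrays did not hold within both days: H2-Ab1 had 0.18 (0.29 and -0.75), H2-DMb1 0.32 (0.68 and -0.15) and Ciita -0.24 (0.03 and 0.53, neither of them negative). These are descriptions of dim probe sets with no test.

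The genes whose values most resembled the mean of H2-Aa, H2-Ab1 and H2-Eb1 included none of the listed antigen presentation or macrophage genes. The 10 with the highest r over the 16 arrays were Fgf6 (0.877), Cyp2j9 (0.811), Mypop (0.808), Lynx1 (0.805), Gorasp1 (0.805), Zfp575 (0.803), Ip6k1 (0.783), Marveld1 (0.780), Limk2 (0.769) and Syvn1 (0.756). Fgf6 encodes a fibroblast growth factor and was itself dim, with a mean of 3.96. The r of the same mean was -0.33 with Adgre1 and -0.26 with Csf1r, the receptor for the macrophage growth factor CSF1. The 99th percentile of r over all tested genes, with class II genes and unnamed gene models included, was 0.638. The 3 chains in the mean followed each other weakly, with r of -0.11, 0.23 and 0.40, and H2-Aa was below the tested level. Little about class II can therefore be read from these 10 genes.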

How the data were processed

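RNA from 16 samples was measured on Affymetrix whole-transcript arrays. The deposited log2 values were computed by the authors with the RMA method of Affymetrix Expression Console, according to the submitters' processing notes. The sources used here give no versions or genome build. RMA sets all arrays to 1 distribution and compresses differences near the background. Of 41345 probe sets, 23521 had 1 symbol in the platform annotation, 1814 had several and 16010 had none. Probe sets with 1 symbol were read, the brightest for each gene. Entrez identifiers matched 23328 of them, and 0 symbols changed. Genes with a mean under 3.905 (percentile 40 among probe sets with a name) were not tested.

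Differences were fitted with limma 3.58.1 in R 4.3.3 (lmFit, eBayes with intensity trend, two-sided) over all tested genes, with Benjamini-Hochberg adjustment at 0.05. Thyroxine was fitted with the pair as a fixed block. Genotype, day and sex were fitted with 8 group means, sex and the culture as a random block (statmod 1.5.0; within-culture correlation 0.202). The comparisons of cultures used 8 means of culture and day plus medium. Residual degrees of freedom were 4, 7 and 7. Pairs were formed from the genotype, sex and day in the titles, and it is assumed that the arrays of a pair share a culture. As a check, the difference between male and female arrays in control medium was correlated across genes with that in thyroxine. The r was 0.771 (3 days) and 0.721 (7 days) for wild type, and 0.119 and 0.393 for Twist1+/-. The pairing thus has less backing in Twist1+/- cells. The fits were also run on simulated data with planted differences, as a check of the code, and no power is read from it.

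The genes and lists were chosen with earlier results of these data known. Named besides them were up to 4 genes per list with the largest change past the threshold, and the 10 tested genes most correlated with the mean of the class II chains, without gene models lacking a characterised name. Cd74 was to enter that mean and is not analysed here. Some other genes of the lists are not analysed here. Alternatives were no filter, no trend, the mean of a gene's probe sets, median centring, other blocks, left-out arrays or cultures and other reference genes.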

Additional observations from a re-analysis of the deposited data

Results flagged for a closer look

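Within the groups of 4 to 10 values, 24 were examined for a value far from the rest, and 2 held one. Chance alone gives about 1 in 20 such groups. For H2-DMb1 the thyroxine minus control difference in Twist1+/- female cells at 3 days was -0.33 on the log2 scale, while the other 3 Twist1+/- pairs lay at 0.21, 0.22 and 0.23. The gap was 0.964 of the whole range. For Ciita the wild-type male pair at 3 days was at 0.34, while the other 3 wild-type pairs lay at -0.09, -0.14 and -0.17, a gap of 0.843 of the range. Both genes were dim, and H2-DMb1 was below the tested level.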

How the results depend on the processing

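Without the wild-type male culture 2 class II genes passed the test for day over all cultures, H2-DMa and H2-Ab1, against 1 with all arrays. With each array left out in turn, the number that passed ran from 0 to 1 for day within Twist1+/- female and within Twist1+/- male cells (1 with all arrays), and from 0 to 1 for the wild-type male culture against the other 3 and for its difference in day change (0 with all arrays). In the other 474 combinations of comparison and alternative, the count of class II genes past the threshold was the same, or the mean change relative to Adgre1 moved by less than its SD. That SD was larger than the change itself for thyroxine (0.094, SD 0.278) and for genotype (0.698, SD 0.724). For these a move to 0 would also have counted as the same, so little stability can be read from them. Without the replicate block, the thyroxine fits called 0 class II genes, as with it. No difference past the threshold changed its sign under any alternative that was run. The counts over all genes moved more. Without the wild-type male culture, the count of all genes for day over all cultures rose as well. That fit keeps only the female array in each wild-type group, so nothing is read from the added H2-Ab1 call. For thyroxine 13 genes passed over all pairs, 27 within Twist1+/- cells and 8 for the genotype difference. Each of these counts fell to 0 without the intensity trend. For day within a culture the counts fell, at the lowest, from 1898 to 978 in Twist1+/- female, from 1518 to 578 in Twist1+/- male, from 1701 to 773 in wild-type female and from 58 to 11 in wild-type male cells, each without 1 array of that culture. Centring the arrays on their median raised the count for the Twist1+/- male culture from 838 to 1688. H2-Aa and H2-DMb1 lie near the background, where RMA compresses differences, so a change in them may not have been detectable.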
